A study of Arabidopsis thaliana with 9 samples.

Results

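QQS, GPT2 and 8 further genes, NF-YC4 and genes of starch metabolism, were followed in RNA-seq libraries of Arabidopsis seedlings. The 10 genes are QQS, NF-YC4, GPT2, ADG1, APL3, GBSS1, SS1, SEX1, BAM1 and BAM3, taken by locus identifier from a table of 32548 genes. They were selected on the levels of QQS, which was lower in both mutants, and of GPT2, which was higher in al24567, so the levels of QQS and GPT2 are given as a description, without a test. All 10 genes passed the filter on low values, an adjusted read count of at least 1 in 3 or more libraries.

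The seedlings were 11 days old and had grown on MS plates under 16 h of light and 8 h of darkness at 22 °C. The line al24567 has the genotype al2-/- al4-/- al5-/- al6-/- al7-/-. The AL genes encode ALFIN-like proteins with a plant homeodomain that reads methylated histone H3. The line ring1a1b has the genotype ring1a-/- ring1b-/-, which affects the RING finger subunits RING1A and RING1B of Polycomb repressive complex 1. Col-0 is the wild type. There were 3 libraries per genotype, the allele of each mutation and the hour of harvest are not given in the sources used here, and all 3 genotypes shared the same growth conditions. The labels do not say whether the 3 libraries of a genotype came from separate plates or plants, so the p-values rest on a spread between libraries that may be technical.

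Starch is built in the chloroplast by day from ADP-glucose, which ADP-glucose pyrophosphorylase makes and starch synthases, branching enzymes and debranching enzymes turn into granules. At night, glucan phosphorylation by SEX1 and its relatives opens the granule surface for beta-amylases such as BAM1 and BAM3, and maltose and glucose leave the plastid for sucrose synthesis. QQS is an orphan gene, found in Arabidopsis thaliana and without recognisable relatives elsewhere. Plants with less QQS hold more leaf starch, and the QQS protein binds NF-YC4, a subunit of the NF-Y transcription factor. GPT2 imports glucose 6-phosphate into plastids and is known for its induction by sugars and by a change to higher light.

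The 9 libraries held 18258434 to 22435659 recovered reads. In al24567 libraries AL2, AL4, AL6 and AL7 differed from Col-0 libraries by −2.69, −1.74, −1.72 and −1.95 on the log2 scale. AL5 was at 87.2, 89.1 and 88.8 in al24567, against 95.6, 84.4 and 96.0 in Col-0 (log2 difference −0.06, limma adjusted p = 0.844), so its reads do not separate the lines. RING1A was at 0, 0.942 and 3.04 in ring1a1b, against 146, 134 and 165 in Col-0. RING1B was lower in ring1a1b, with a log2 difference of −0.79 (limma adjusted p = 0.00858, and 0.0560 without Col-0 replicate 2). All 9 leaf markers and all 8 root markers examined had reads in every library. In bulk RNA, fewer cells of a type and less RNA per cell cannot be told apart.

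QQS (AT3G30720) is annotated on the plus strand of chromosome 3 at 12349047 to 12349933 in TAIR10.1. The 250 bases before its annotated start are shown because the repeats and transposon-derived sequence around QQS are known from natural accessions to carry DNA methylation that varies with its expression. The window is chr3:12348797-12349046, and capitals mark the best match between stretches of 40 bases within it, an imperfect direct repeat.
QQS upstream window: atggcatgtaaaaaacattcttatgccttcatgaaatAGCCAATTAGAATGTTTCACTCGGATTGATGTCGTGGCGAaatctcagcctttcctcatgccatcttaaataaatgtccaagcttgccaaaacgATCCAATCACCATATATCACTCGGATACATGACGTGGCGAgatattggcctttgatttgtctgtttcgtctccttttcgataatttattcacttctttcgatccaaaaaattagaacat
The copies begin 213 and 119 bases before the start, and 31 of their 40 bases are the same. Among 27443 windows of this length before protein-coding genes, 1.49% hold a match at least as close, and the median best match is 22 of 40 bases. Methylation was not measured in these libraries.

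QQS was close to undetected in al24567 and at an intermediate level in ring1a1b. Its adjusted read counts were 1.0, 1.08 and 3.26 in the al24567 libraries, 64.1, 43.7 and 56.0 in the ring1a1b libraries, and 396, 306 and 409.9 in the Col-0 libraries. The 3 genotypes did not overlap, and every ring1a1b library lay between every al24567 library and every Col-0 library. An adjusted read count is a read count that was scaled to a common library size, without division by gene length.

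In recovered reads, QQS had 5 over the 3 al24567 libraries, 167 over the 3 ring1a1b libraries and 1149 over the 3 Col-0 libraries. A level of 3 reads in a library corresponds to 0.134 to 0.164 CPM, a read count scaled for library size, and no al24567 library had more than 3 reads of QQS. Relative to Col-0 and scaled for library size, QQS was 219-fold lower in al24567, with a 95% counting interval from 93.4 to 674, and 6.58-fold lower in ring1a1b (5.59 to 7.78). These intervals cover counting error only. In ring1a1b it was 33.2-fold higher than in al24567 (14 to 104). Without al24567 replicate 3, which holds 3 of the 5 reads, QQS was 367-fold lower in al24567 than in Col-0 and 55.9-fold higher in ring1a1b than in al24567.

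On the scale of log2(value + 1), which understates changes of low genes, QQS differed from Col-0 by −7.14 ± 0.31 (SE) in al24567 and by −2.75 ± 0.31 in ring1a1b. With a pseudocount of 0.1 the al24567 difference was −7.81. With any 1 library left out it stayed between −7.49 and −6.95 in al24567 and between −2.88 and −2.60 in ring1a1b.

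**Figure D1:**
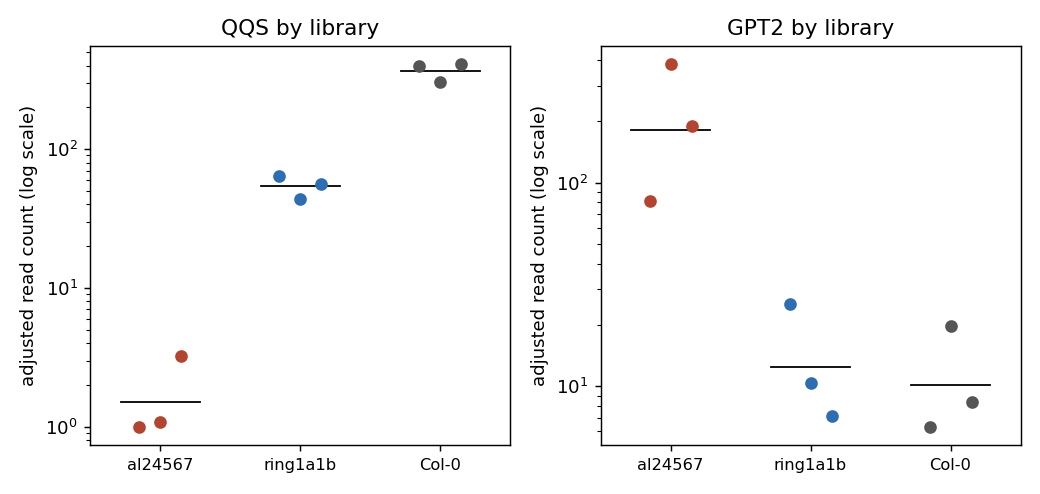
Adjusted read counts of QQS and GPT2 in each library on a log scale, by genotype; points are libraries and lines the mean of the log values (n = 3). QQS lies at 1.0 to 3.26 in al24567, 43.7 to 64.1 in ring1a1b and 306 to 409.9 in Col-0, while GPT2 lies at 81.2 to 383 in al24567 and at 6.32 to 25.4 in all libraries of the other genotypes.

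The annotated surroundings of QQS offered little to compare. Of the 3 annotated genes on each side, 5 are pseudogenes, for which the data hold no values. The remaining gene, GDU6, begins 2538 bases downstream and had 32 reads over all 9 libraries. Its values were 1.01, 6.33 and 7.63 in al24567, 1.92, 4.81 and 2.05 in ring1a1b, and 3.12, 4.19 and 1.62 in Col-0, so the genotypes overlapped.

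NF-YC4 (AT5G63470; chromosome 5, 25415600 to 25417199, minus strand), the partner of QQS, was lower in al24567. It was at 578, 449 and 539 in al24567, 632, 606 and 586 in ring1a1b, and 789.8, 668 and 791 in Col-0. Neither mutant overlapped Col-0. The log2 difference from Col-0 was −0.52 ± 0.10 in al24567 (limma adjusted p = 0.000332).

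In ring1a1b the difference of NF-YC4 from Col-0 was −0.30 ± 0.10 (limma adjusted p = 0.0412), a call that was lost under 7 of 15 alternatives. It was lost without Col-0 replicate 1 or 3 (adjusted p = 0.162 and 0.163), without ring1a1b replicate 1, 2 or 3 (adjusted p = 0.0544, 0.0883 and 0.129), with equal library totals (adjusted p = 0.0976) and with DESeq2 (adjusted p = 0.0507). Between the mutants NF-YC4 was 0.23 ± 0.10 higher in ring1a1b than in al24567 without passing the test (adjusted p = 0.0773), although it passed without al24567 replicate 1 (adjusted p = 0.0247) and with equal library totals (adjusted p = 0.0103). AT5G63480 overlaps NF-YC4 on the opposite strand with a mean of 133, and since no strand setting is given, reads of the overlap cannot be assigned.

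Of the 13 NF-YC genes, 9 were tested. In al24567, 3 fell and none rose, against 18.4% lower and 17.9% higher among all 23207 genes tested. NF-YC12 fell the most of these, at 168, 163 and 144 in al24567 and 316, 309 and 289.9 in Col-0 (−0.94 ± 0.12, limma adjusted p = 4.35e-06). The third gene that fell in al24567, NF-YC11, differed by −0.30 ± 0.10 (adjusted p = 0.020), and leaving out Col-0 replicate 2 (adjusted p = 0.116) or al24567 replicate 1 (adjusted p = 0.0731) ended its call. In ring1a1b, NF-YC4 was the only NF-YC gene called, or 11.1% of those tested, below the 17.7% of all genes.

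GPT2 (AT1G61800) lies on the plus strand of chromosome 1 at 22824414 to 22826902. Its upstream window, chr1:22824164-22824413 in TAIR10.1, is shown because it holds an evening element, AAAATATCT, a motif bound by the morning clock factors CCA1 and LHY and marked in capitals.
GPT2 upstream window: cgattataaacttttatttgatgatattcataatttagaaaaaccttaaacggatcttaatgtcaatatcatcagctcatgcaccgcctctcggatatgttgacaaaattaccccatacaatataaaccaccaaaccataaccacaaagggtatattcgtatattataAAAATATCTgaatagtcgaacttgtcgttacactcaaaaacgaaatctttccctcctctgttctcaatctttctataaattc
The element begins 82 bases before the start. On either strand it occurs in 2.36% of the 27443 windows, and among the 10 genes in that of GPT2 alone. The windows were also searched on both strands for the G-box CACGTG, which SS1 holds 156 bases before its start and 6.49% of all windows hold. The CCA1-binding site AAAAATCT, the telobox AAACCCTA, the repeat GAGAGAGA and the I-box core GATAAG occur in 6.69%, 4.49%, 4.91% and 12.3% of all windows, and in none of the 10, so no motif matched here overlaps another.

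GPT2 was higher in al24567, and in ring1a1b it overlapped the wild type. Its adjusted read counts were 81.2, 383 and 190.3 in al24567, 25.4, 10.4 and 7.18 in ring1a1b, and 6.32, 19.8 and 8.35 in Col-0. The lowest al24567 library lay above every other library, and ring1a1b and Col-0 overlapped. The spread within a genotype was wide: the highest al24567 library, replicate 2, stood well above the lowest, replicate 1.

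In recovered reads GPT2 had 615 over the al24567 libraries, 44 over the ring1a1b libraries and 35 over the Col-0 libraries. Relative to Col-0 the scaled ratio was 18.5 in al24567 (95% counting interval 13.1 to 26.8) and 1.31 in ring1a1b (0.824 to 2.11). These ratios depended on single libraries. The al24567 ratio was 11.1 without al24567 replicate 2, which holds 363 of the 615 reads, and 28 without Col-0 replicate 2, which holds 19 of the 35, both outside the interval. The ring1a1b ratio was 0.819 without ring1a1b replicate 1 and 1.99 without Col-0 replicate 2. On the log2(value + 1) scale the differences were 4.02 ± 0.51 and 0.26 ± 0.51. With 1 library left out the al24567 difference lay between 3.48 and 4.59, and the ring1a1b difference between −0.22 and 0.71, on both sides of 0.

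The gene downstream of GPT2, BGLU45, begins 3018 bases beyond its end and went the other way. BGLU45, a beta-glucosidase gene, was at 10, 11.7 and 13.2 in al24567 and at 53.1, 41.4 and 77.2 in Col-0 (−2.16 ± 0.31, limma adjusted p = 1.84e-05). Upstream, AT1G61790 was 0.26 ± 0.08 higher in al24567 (adjusted p = 0.0109), and AT1G61780 and AT1G61795 did not pass the test. None of these neighbours passed the test in ring1a1b, and the remaining pair, both lncRNA genes, had 0 reads.

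GPT2 is 1 of 8 plastid carriers of sugar phosphates and adenylates on the list. Of the other 7, 3 were called higher and 1 lower in al24567, where 17.9% of all genes tested were called higher and 18.4% lower. GPT1, the housekeeping glucose 6-phosphate carrier, was at 1686, 1613 and 1785 in al24567 and 1047, 1185 and 1113 in Col-0, a rise of 0.60 ± 0.07 (limma adjusted p = 2.60e-06). The ATP carriers NTT1 and NTT2, which supply the plastid with ATP, rose in al24567 too, NTT1 by 0.65 ± 0.07 (adjusted p = 1.27e-06) and NTT2 by 0.34.

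PPT2, a phosphoenolpyruvate carrier, was lower in both mutants, at 654, 637 and 846 in al24567, 699, 774 and 763 in ring1a1b, and 1159.6, 977 and 1025 in Col-0. Its log2 difference was −0.57 ± 0.10 in al24567 (adjusted p = 0.000170) and −0.50 ± 0.10 in ring1a1b (adjusted p = 0.00163). Of the 7 carriers other than GPT2, PPT2 was the only one called in ring1a1b, or 14.3%, below the 17.7% of all genes. There GPT1 differed by 0.15 ± 0.07 (adjusted p = 0.190) and NTT1 by 0.18 ± 0.07 (adjusted p = 0.0961).

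Apart from QQS and GPT2, 5 of the other 8 genes were called in al24567 (3 higher and 2 lower) and 3 in ring1a1b (none higher and 3 lower). Among all 23207 genes tested, 36.3% were called in al24567 and 17.7% in ring1a1b. These genes were chosen with the results of the same libraries known, so nothing is read from the difference between those shares.

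**Figure D2:**
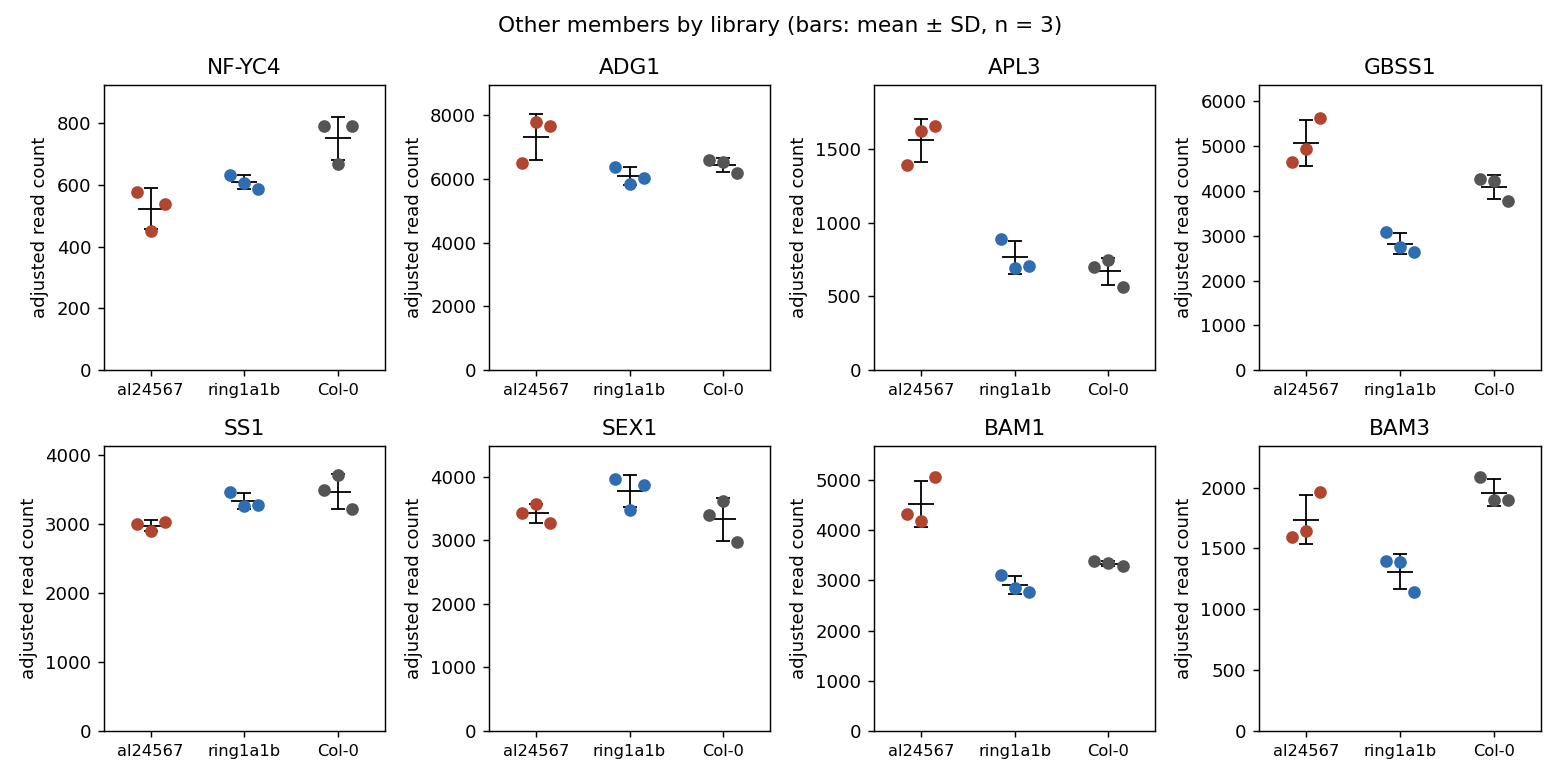
Adjusted read counts of the 8 other genes in each library; points are libraries and bars the mean ± SD (n = 3). APL3 stands apart in al24567 (1393 to 1658, against 566 to 746 in Col-0), GBSS1 lies above Col-0 in al24567 and below it in ring1a1b, and BAM3 is lowest in ring1a1b.

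ADG1 (AT5G48300; chromosome 5, 19570238 to 19572804, plus strand), the small, catalytic subunit of ADP-glucose pyrophosphorylase, did not pass the test in either mutant. It was at 6493, 7777 and 7669 in al24567, 6385, 5846 and 6031 in ring1a1b, and 6593, 6533 and 6199 in Col-0. The log2 difference from Col-0 was 0.18 ± 0.08 in al24567 (limma adjusted p = 0.0725) and −0.08 ± 0.08 in ring1a1b (adjusted p = 0.529). Replicate 1 of al24567 lay among the Col-0 libraries, and without it the difference was 0.26 with adjusted p = 0.00676. DESeq2 also called it (adjusted p = 0.0288).

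APL3 (AT4G39210; chromosome 4, 18259547 to 18263468, plus strand), a large, regulatory subunit of the same enzyme that is best known from sink tissue and responds to sugar, rose in al24567. It was at 1393, 1623 and 1658 in al24567, 893, 695 and 706 in ring1a1b, and 697, 746 and 566 in Col-0. The difference of al24567 from Col-0 was 1.22 ± 0.11, or 2.33-fold (limma adjusted p = 8.08e-08), without overlap. In ring1a1b it was 0.19 ± 0.11 (adjusted p = 0.267), and the libraries overlapped.

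GBSS1 (AT1G32900; chromosome 1, 11920390 to 11923866, minus strand), the granule-bound synthase that makes amylose, moved in opposite directions in the mutants. It was at 4644, 4941 and 5637 in al24567, 3080.3, 2757 and 2639 in ring1a1b, and 4272, 4219 and 3788 in Col-0. It rose by 0.31 ± 0.08 in al24567 (limma adjusted p = 0.00571) and fell by 0.54 ± 0.08 in ring1a1b (adjusted p = 0.000106), with no overlap between any of the genotypes. The direct comparison of ring1a1b with al24567 gave −0.84 ± 0.08 (adjusted p = 1.48e-07).

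GBSS1 is a known target of the morning clock factors CCA1 and LHY, and both differed between the lines. CCA1 was at 3344, 2907 and 3300.4 in al24567, 2492, 2494 and 2314 in ring1a1b, and 4761, 4839 and 4758 in Col-0. LHY was at 2548, 2605 and 3168 in al24567, 1073, 1011 and 909.5 in ring1a1b, and 1686, 1606 and 1838 in Col-0. CCA1 thus fell in both mutants (−0.59 ± 0.07 and −0.98 ± 0.07), whereas LHY rose in al24567 (0.69 ± 0.09) and fell in ring1a1b (−0.78 ± 0.09).

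Of the 10 clock genes, 2 rose and 4 fell in al24567, and 2 rose and 2 fell in ring1a1b, against 36.3% of all genes called in al24567 and 17.7% in ring1a1b. The fall of ELF3 in al24567 (−0.34 ± 0.13, limma adjusted p = 0.0423) was lost in 8 of 15 alternatives, among them the omission of any 1 of the 6 libraries (adjusted p from 0.0675 to 0.105). The ring1a1b rises were those of PRR5 (0.87 ± 0.27, adjusted p = 0.0309) and GI (0.30 ± 0.08, adjusted p = 0.0131). The PRR5 call was lost without any 1 of the 6 libraries but ring1a1b replicate 1 (adjusted p from 0.0541 to 0.126), and that of GI without Col-0 replicate 1 or 3 or ring1a1b replicate 1 (adjusted p = 0.0911, 0.0533 and 0.0521). Their summed level was 9679 to 10335 in al24567, 8659 to 8805 in ring1a1b and 11508 to 11742 in Col-0, and none was at 0 reads. Whether clock phase or the hour of sampling has a part in the values of GBSS1 or of the other starch genes was not tested.

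SS1 (AT5G24300; chromosome 5, 8266566 to 8271205, plus strand), a soluble starch synthase that extends short chains of amylopectin, was lower in al24567. It was at 3005, 2895 and 3037 in al24567, 3461, 3261 and 3274 in ring1a1b, and 3488, 3710.2 and 3214 in Col-0. The difference in al24567 was −0.22 ± 0.07 (limma adjusted p = 0.0152), and the call was lost without Col-0 replicate 2, which is the highest of its group (−0.17, adjusted p = 0.0976). In ring1a1b, SS1 differed from Col-0 by −0.06 ± 0.07 (adjusted p = 0.636), with overlapping libraries.

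Of the 19 genes of starch synthesis, these members included, 4 rose and 6 fell in al24567, and none rose and 3 fell in ring1a1b. Among all genes tested, 17.9% rose and 18.4% fell in al24567, and the 15.8% of the list called in ring1a1b lie below the 17.7% of all genes. The list's median log2 difference was 0.10 in al24567 and −0.06 in ring1a1b, against −0.02 over all genes tested in each comparison. ISA2, a subunit of the debranching isoamylase, was at 2139, 1964 and 2013 in al24567 and 1557, 1481 and 1383 in Col-0 (0.47 ± 0.07, adjusted p = 5.94e-05). SS2, which makes chains of intermediate length, rose by 0.40 ± 0.07 in al24567 (adjusted p = 0.000161).

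SS5, a noncanonical synthase-like protein that helps granules to start, fell in al24567, at 541, 526 and 481 against 691, 763 and 675 in Col-0 (−0.46 ± 0.09, adjusted p = 0.000315). PGM1, the plastid phosphoglucomutase that makes glucose 1-phosphate for the pathway, fell by 0.30 on the log2 scale in al24567 (adjusted p = 0.00224). In ring1a1b, SS5 (−0.25 ± 0.09, adjusted p = 0.0458) and PGM1 (−0.21 ± 0.07, adjusted p = 0.0452) were called with GBSS1. Each call was lost in 11 of 15 alternatives. Among them were the omission of any 1 of the 6 libraries, with adjusted p from 0.0563 to 0.201 for SS5 and from 0.0676 to 0.209 for PGM1, equal library totals, DESeq2 and edgeR with either set of factors.

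The 7 proteins that start or shape starch granules gave no rise in al24567: 4 fell and 3 were not called, against 17.9% higher and 18.4% lower among all genes. In ring1a1b, 1 rose and 3 fell, against 10% higher and 7.67% lower among all genes. MRC, also called PII1, a plastid protein needed to start granules, was at 922, 921 and 1023 in al24567, 1223, 1213 and 1146 in ring1a1b, and 1675, 1558 and 1584 in Col-0. It fell by 0.75 ± 0.07 in al24567 (limma adjusted p = 1.41e-07) and by 0.43 ± 0.07 in ring1a1b (adjusted p = 0.000246), and al24567 lay below ring1a1b in every library.

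MFP1, the thylakoid protein that places granule starts, was also lower in both mutants, at 2337, 2593 and 2160.3 in al24567, 3124, 2863 and 2953 in ring1a1b, and 4114, 3692 and 3551 in Col-0. The differences were −0.68 ± 0.08 (adjusted p = 1.35e-06) and −0.34 ± 0.08 (adjusted p = 0.00369). As for MRC and QQS, al24567 was lowest and ring1a1b lay in between.

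ESV1, which keeps starch from being degraded too early, fell by 0.51 ± 0.10 in al24567 (adjusted p = 0.000522). In ring1a1b it differed by −0.30 ± 0.10 (adjusted p = 0.0487), a call lost in 11 of 15 alternatives, among them the omission of any 1 of the 6 libraries (adjusted p from 0.0538 to 0.226), equal library totals, DESeq2 and edgeR. Its relative LESV was higher in ring1a1b, at 749, 592 and 620.3 against 485, 478 and 445 in Col-0 (0.47 ± 0.10, adjusted p = 0.00230), and was not called in al24567 (0.14 ± 0.10, adjusted p = 0.302). The fourth gene called lower in al24567, PTST3, differed by −0.21 ± 0.07 (adjusted p = 0.0309), and leaving out Col-0 replicate 2 or 3 (adjusted p = 0.130 and 0.0608) or al24567 replicate 1 or 3 (adjusted p = 0.0535 and 0.0575) ended its call. DESeq2 (adjusted p = 0.0687) and edgeR with RLE factors (adjusted p = 0.0557) did not call it.

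**Figure D3:**
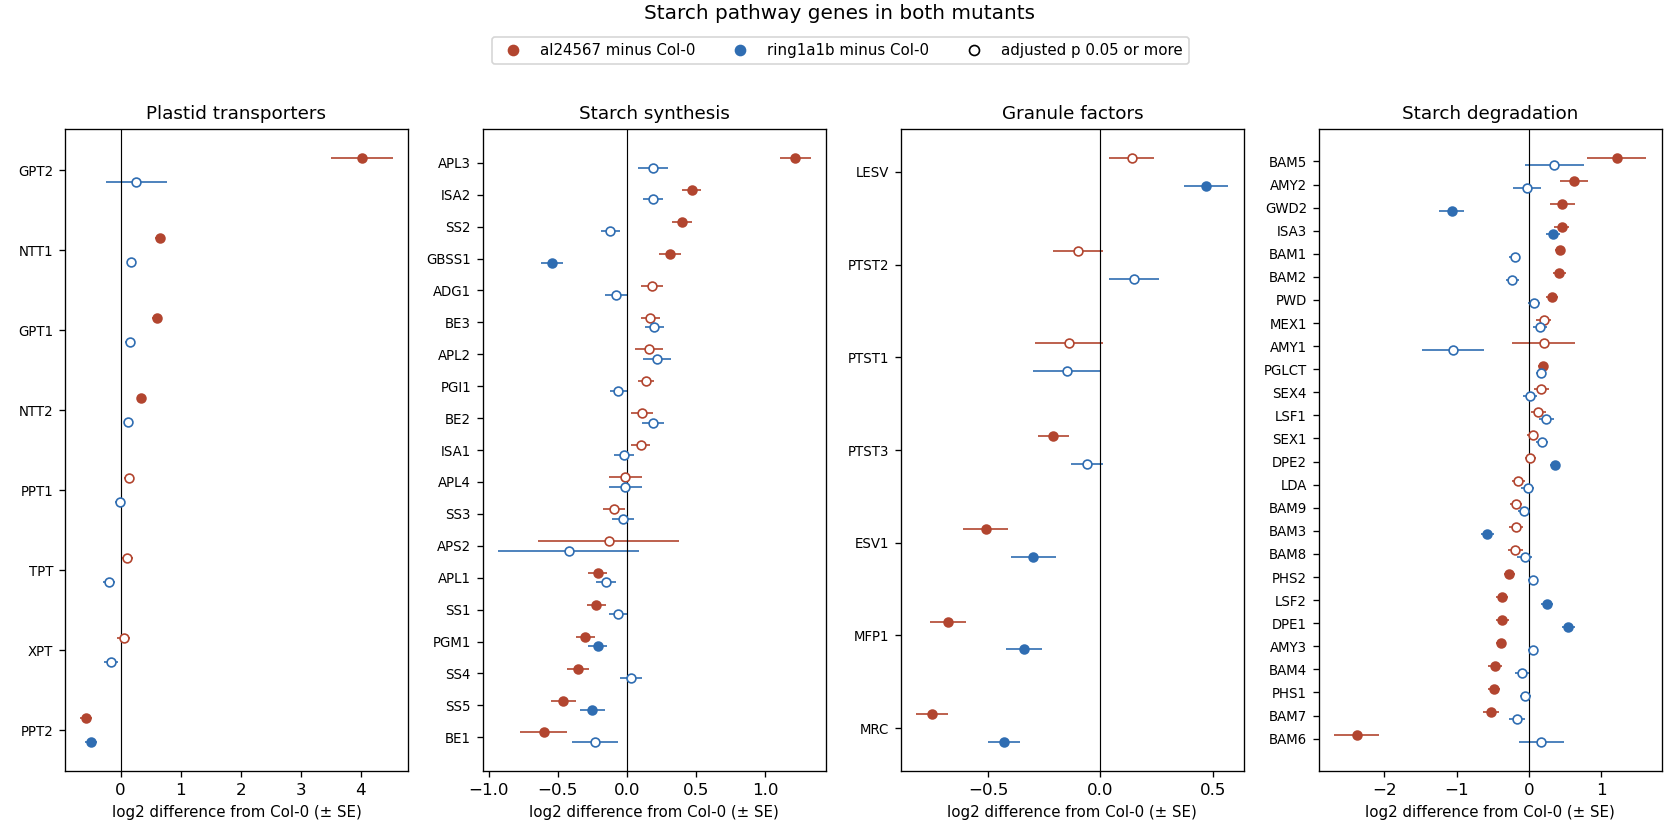
Log2 difference from Col-0 (± SE) of 60 starch genes in 4 lists, with al24567 in red and ring1a1b in blue; filled points passed limma's test at an adjusted p below 0.05. Differences are wider in al24567 than in ring1a1b for MRC, MFP1, APL3 and BAM6, while GBSS1, DPE1 and GWD2 lie on opposite sides of 0 in the mutants.

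SEX1 (AT1G10760; chromosome 1, 3580830 to 3590928, minus strand), the glucan, water dikinase that begins starch degradation, was not called in either mutant. It was at 3427, 3578 and 3278 in al24567, 3969, 3483 and 3864 in ring1a1b, and 3397, 3626 and 2968 in Col-0, and all 3 genotypes overlapped. The differences from Col-0 were 0.05 ± 0.08 in al24567 (limma adjusted p = 0.691) and 0.18 ± 0.08 in ring1a1b (adjusted p = 0.121). With libraries scaled to equal totals the ring1a1b difference was 0.24 and passed the test (adjusted p = 0.0372).

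BAM1 (AT3G23920; chromosome 3, 8641181 to 8644449, plus strand), a chloroplast beta-amylase known for its role in stressed leaves and guard cells, rose in al24567. It was at 4323, 4182 and 5049 in al24567, 3103, 2853 and 2765 in ring1a1b, and 3383, 3346 and 3276 in Col-0. The difference was 0.43 ± 0.07 in al24567 (limma adjusted p = 0.000144). In ring1a1b every library lay below every Col-0 library, with a difference of −0.20 ± 0.07 that did not pass the test (adjusted p = 0.0730). It passed without ring1a1b replicate 1 (adjusted p = 0.0462) and in a fit of the 2 genotypes alone (adjusted p = 0.0167).

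BAM3 (AT4G17090; chromosome 4, 9604962 to 9607402, minus strand), the main beta-amylase of starch breakdown at night, fell in ring1a1b. It was at 1595, 1642 and 1966 in al24567, 1399, 1389.6 and 1141 in ring1a1b, and 2084, 1895 and 1896 in Col-0. The difference was −0.58 ± 0.09 in ring1a1b (limma adjusted p = 0.000127), without overlap. In al24567 it was −0.18 ± 0.09 (adjusted p = 0.130), with replicate 3 among the Col-0 libraries, and it passed without that replicate (−0.27, adjusted p = 0.0226) and with equal library totals (adjusted p = 0.0450). AT4G17085 overlaps BAM3 on the opposite strand with a mean of 54.4, and reads of the overlap cannot be assigned.

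Of the 26 genes on the starch degradation list, 8 rose and 8 fell in al24567, and 4 rose and 2 fell in ring1a1b. The list takes in BAM genes by family, not by shown activity on starch, and BAM4 and BAM7 were among those that fell in al24567. The share called was 61.5% in al24567 and 23.1% in ring1a1b, against 36.3% and 17.7% of all genes. The median log2 difference of the list was 0.03 in each. In al24567 the AMY2 rise was lost without al24567 replicate 1 or 2 (limma adjusted p = 0.0545 and 0.0511). That of PGLCT was lost in 4 of 15 alternatives (adjusted p up to 0.133). In ring1a1b the LSF2 rise was lost in 4 of 6 fits without 1 library, and that of ISA3 in 2 (adjusted p up to 0.148 and 0.116). The list was chosen with earlier results known, so nothing is read from these shares. BAM6, a beta-amylase gene, was at 11.0, 21.3 and 34.9 in al24567, 139.8, 124 and 110.1 in ring1a1b, and 147, 87.8 and 102 in Col-0. It fell by 2.38 ± 0.31 in al24567 (limma adjusted p = 7.59e-06) and overlapped Col-0 in ring1a1b. PHS1, the plastid glucan phosphorylase, and AMY3, the plastid alpha-amylase, fell in al24567 by 0.48 ± 0.08 (adjusted p = 6.09e-05) and 0.39 ± 0.06 (adjusted p = 6.17e-05).

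DPE1, the plastid enzyme that recycles maltotriose, had opposite directions in the mutants. It was at 419, 484 and 431 in al24567, 835, 775 and 894 in ring1a1b, and 554, 565 and 600.5 in Col-0. The differences were −0.37 ± 0.09 in al24567 (adjusted p = 0.00241) and 0.54 ± 0.09 in ring1a1b (adjusted p = 0.000187), and 0.91 ± 0.09 for ring1a1b minus al24567 (adjusted p = 1.31e-07). DPE2, the cytosolic enzyme that uses maltose, rose by 0.36 ± 0.07 in ring1a1b (adjusted p = 0.000670) and differed by 0.02 ± 0.07 in al24567 (adjusted p = 0.845).

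GWD2, a relative of SEX1 outside the plastid, was at 403, 384 and 282 in al24567, 152, 134 and 88.8 in ring1a1b, and 258, 271 and 241 in Col-0. It fell by 1.07 ± 0.17 in ring1a1b (adjusted p = 0.000212). In al24567 it differed by 0.46 ± 0.17 (adjusted p = 0.0463), a call lost without al24567 replicate 1 or 2 (adjusted p = 0.162 and 0.138) or any 1 of the Col-0 libraries (adjusted p = 0.0982, 0.0723 and 0.137). It was also lost with equal library totals (adjusted p = 0.0776), with a pseudocount of 0.1 (adjusted p = 0.0580) and without a filter on low values (adjusted p = 0.0603).

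**Figure D4:**
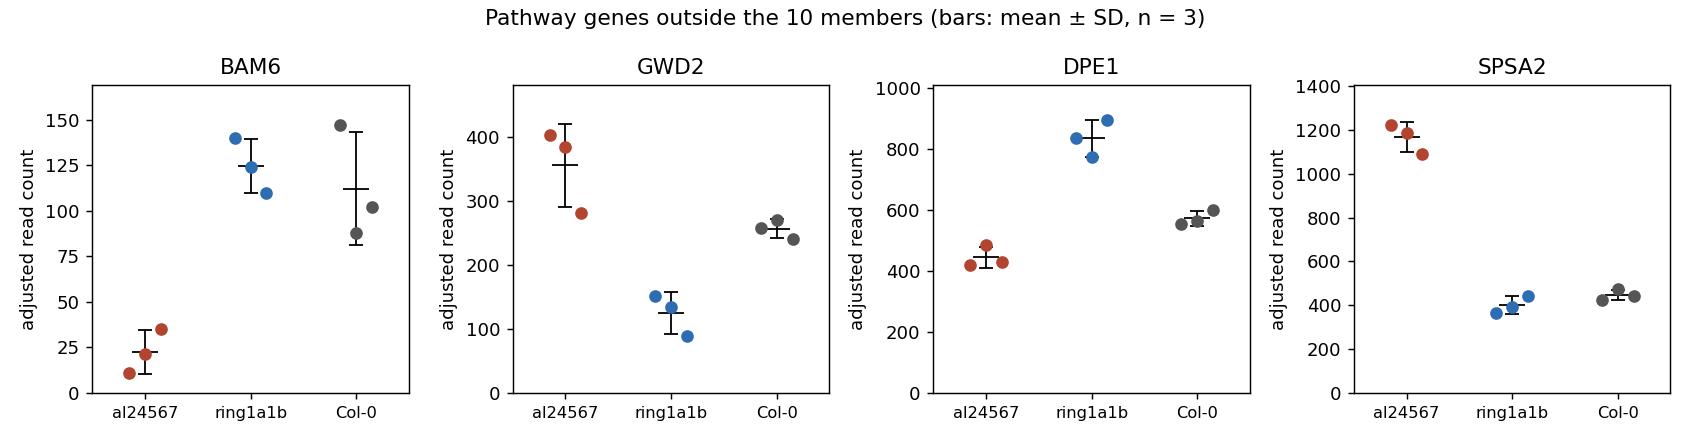
Adjusted read counts of BAM6, GWD2 and DPE1 of starch degradation and SPSA2 of sucrose synthesis in each library; points are libraries and bars the mean ± SD (n = 3). BAM6 is low in al24567 alone (11.0 to 34.9), SPSA2 is high in al24567 alone (1091 to 1223), and GWD2 and DPE1 differ between the mutants in opposite senses.

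Over the 60 genes of the carrier, synthesis, granule and degradation lists, 35 were called in al24567 (16 higher and 19 lower) and 14 in ring1a1b (5 higher and 9 lower). These counts include GPT2 and 7 more genes chosen with the results known. The other 52 had 12 higher and 18 lower in al24567, and 5 higher and 7 lower in ring1a1b, or 57.7% and 23.1% called, against 36.3% and 17.7% of all genes. The lists that hold these 52 were also chosen with earlier results known, and all genes tested were not matched to them in level. Nothing is therefore read from the difference between those shares. The median log2 difference of the 52 was 0.00 in al24567 and −0.02 in ring1a1b. Direction in ring1a1b depended on scaling: of the 60, with equal library totals 19 were called, 13 higher and 6 lower, and with edgeR on recovered reads 12 were called, 6 in each direction. Among all genes tested, 10% were called higher and 7.67% lower in ring1a1b in the reported fit, and shares under the other settings are not given here. Equal library totals moved the median of all genes in this comparison to 0.04, against −0.02 in the reported fit. The summed level of the 60 genes was 138103 to 147152 in al24567, 124489 to 130282 in ring1a1b and 130669.8 to 137113 in Col-0. As a percent of recovered reads the genotypes overlapped, at 0.679 to 0.713, 0.668 to 0.692 and 0.680 to 0.701. The carrier TPT, called in neither mutant, made up a large part of the sum, with means of 48868, 39664 and 45256.

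Comparing the mutants directly, 5 of the other 8 genes were called, all lower in ring1a1b than in al24567, against 39.0% of all genes tested called in either direction, 20% higher and 18.9% lower. They were ADG1 (−0.26 ± 0.08, limma adjusted p = 0.0100), APL3 (−1.03 ± 0.11, adjusted p = 4.87e-07), GBSS1 (−0.84), BAM1 (−0.63 ± 0.07, adjusted p = 1.79e-06) and BAM3 (−0.40 ± 0.09, adjusted p = 0.00144). The ADG1 call was lost with equal library totals (adjusted p = 0.0858), a scaling that moved the median of all genes in this comparison to 0.12, against 0.02 in the reported fit. Under that scaling 7 of the 8 were called, 3 higher and 4 lower. In the reported fit, 13 of the 60 pathway genes, GPT2 included, were higher and 18 lower. Of the 52 not chosen as members, 13 were higher and 12 lower. With equal library totals, 23 of the 60 were higher and 14 lower. Shares of all genes called under that scaling are not given here, so its counts are not read as a result about these genes.

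Of 8 genes listed for cytosolic sucrose synthesis, which takes up the carbon that starch breakdown releases, 4 rose and 2 fell in al24567, and none rose and 2 fell in ring1a1b. The list includes TPS1, a trehalose phosphate synthase gene that was called in neither mutant. Among all genes tested 36.3% were called in al24567 and 17.7% in ring1a1b. SPSA2, a sucrose phosphate synthase, was at 1223, 1184 and 1091 in al24567, 366, 393 and 444 in ring1a1b, and 425, 473 and 443 in Col-0. It rose by 1.38 ± 0.09 in al24567 (limma adjusted p = 1.36e-09). SPSA1, the main leaf form, rose by 0.45 ± 0.07 (adjusted p = 3.65e-05).

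SPSC, another sucrose phosphate synthase of leaves, rose by 0.27 ± 0.07 in al24567 (adjusted p = 0.00745) and fell by 0.49 ± 0.07 in ring1a1b (adjusted p = 0.000108), the same directions as GBSS1. CFBP, the cytosolic fructose bisphosphatase at the start of the route, was lower in both, at 3001, 2665 and 2567 in al24567, 3594, 3399 and 3198 in ring1a1b, and 4507, 4706 and 4236 in Col-0 (−0.71 ± 0.07, adjusted p = 4.65e-07, and −0.40 ± 0.07, adjusted p = 0.000691). UGP2, which makes UDP-glucose, fell by 0.54 ± 0.09 in al24567 (adjusted p = 7.26e-05).

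Divided by the length of the annotated exons, ADG1 had the highest level of the 10 genes in every genotype, at 191 ± 21.7 CPM per kb in al24567, 170.4 ± 5.12 in ring1a1b and 173 ± 3.0 in Col-0 (SD, n = 3 each). QQS, with 687 bases of exon, averaged 0.128 ± 0.0907 in al24567, 4.22 ± 0.731 in ring1a1b and 27.5 ± 4.27 in Col-0 on the same scale. It ranked last in al24567 and next to last in ring1a1b, and stood between SEX1 and NF-YC4 in Col-0, where its libraries overlapped those of both. GPT2 averaged 5.97 ± 4.40 in al24567, 0.409 ± 0.268 in ring1a1b and 0.322 ± 0.205 in Col-0, and was the lowest of the 10 in the last pair.

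In al24567 the order per length was ADG1, GBSS1, BAM1, SS1, BAM3, APL3, SEX1, NF-YC4, GPT2 and QQS, and the libraries of APL3 overlapped those of BAM3 and of SEX1. In ring1a1b SS1, GBSS1 and BAM1 followed ADG1 at 66.3, 65.5 and 61.3. There the libraries of GBSS1 overlapped those of both, NF-YC4 overlapped APL3, and the other neighbours in the order did not overlap. In Col-0, BAM1 at 67.6 and SS1 at 66.3 could not be ordered, since the SS1 libraries (62.6 to 71.0) span those of BAM1.

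**Figure D5:**
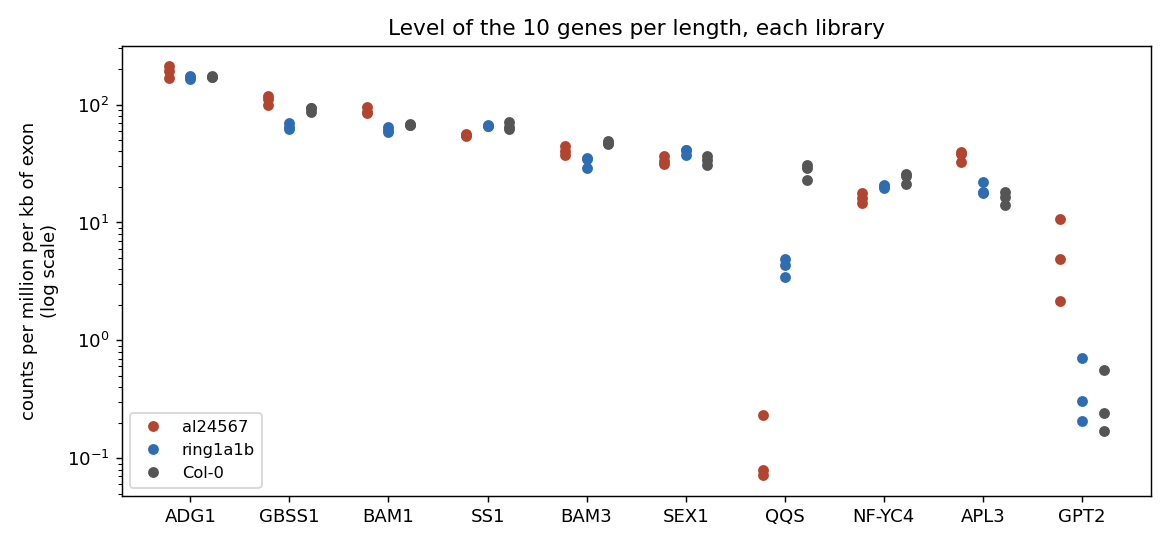
Level of the 10 genes in each library as CPM per kb of annotated exon, on a log scale, ordered by their mean in Col-0. QQS spans 0.0717 to 31.0 over the libraries and GPT2 0.169 to 10.8, and QQS and APL3 each move by 3 places in the order between al24567 and Col-0.

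The genes most like QQS were sought among 19899 tested genes with a mean of at least 10, by Pearson's r of log2 values over the 9 libraries. The 5 nearest were AT2G05160 (0.991), MRU1 (0.991), EML3 (0.991), AT2G20250 (0.990) and PSRP2 (0.990). All have the order al24567 lowest, ring1a1b intermediate and Col-0 highest, which is what the measure selects, but their range differs. MRU1 was at 11.0, 12.8 and 17.6 in al24567, 70.9, 62.9 and 47.9 in ring1a1b, and 119.6, 122 and 126 in Col-0. EML3, by contrast, spanned only 880.0 to 917 in al24567, 1022 to 1051 in ring1a1b and 1087 to 1132 in Col-0.

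The 5 genes nearest to GPT2 were AT2G20080 (0.980), PME3 (0.980), AT1G01490 (0.976), AT5G53110 (0.975) and mMDH2 (0.972). In PME3, a pectin methylesterase gene, the values were 3188, 3450.5 and 3456 in al24567, 2705, 2507 and 2488 in ring1a1b, and 2359, 2572 and 2358 in Col-0. AT5G53110 was at 235, 287 and 279 in al24567, 178, 149 and 152 in ring1a1b, and 121, 162 and 153 in Col-0. None had a range as wide as that of GPT2.

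BAM5, a beta-amylase outside the plastid that responds to sugar, was highest in the same library as GPT2 within each mutant, but not in Col-0, where GPT2 was highest in replicate 2 and BAM5 in replicate 1. It was at 83.2, 251 and 142 in al24567, 179, 48.1 and 56.2 in ring1a1b, and 81.9, 64.2 and 44.5 in Col-0. In al24567 its difference was 1.21 ± 0.41 (limma adjusted p = 0.0259), with adjusted p from 0.00546 to 0.152 when 1 library was left out and 4 of 6 such fits losing the call, as did DESeq2 (adjusted p = 0.0916). Those were the fits without Col-0 replicate 2 or 3 or al24567 replicate 2 or 3. BAM5 was singled out after its values were seen.

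Markers of other tissues and stages moved in some libraries. Of 8 root markers, 6 rose and 1 fell in al24567 and 2 rose in ring1a1b, with a summed level of 5014 to 5275 in al24567, 3794 to 4730.2 in ring1a1b and 3548 to 3949 in Col-0. The share of all genes called was 36.3% in al24567 and 17.7% in ring1a1b. The fall of PHO1 in al24567 was lost in 8 of 15 alternatives, 4 of them without Col-0 replicate 2 or 3 or al24567 replicate 1 or 3 (adjusted p from 0.0723 to 0.163). The rises of EXPA7 (adjusted p = 0.0567) and SHR (adjusted p = 0.10) there were lost without al24567 replicate 1, and that of SHR also without Col-0 replicate 3 (adjusted p = 0.156). In ring1a1b both rises were lost without ring1a1b replicate 2, with adjusted p = 0.182 for CASP1 and 0.0576 for TIP2;3, and that of CASP1 also without Col-0 replicate 1 or 3 (adjusted p = 0.106 and 0.115).

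Of 9 leaf markers, none was called in al24567 and GAPA alone fell in ring1a1b (−0.34 ± 0.11, adjusted p = 0.0315), a call lost without any 1 of the 6 libraries (adjusted p from 0.0566 to 0.119). The summed leaf level was 974628 to 1214312 in al24567, 1060093 to 1187789 in ring1a1b and 1137321 to 1284073 in Col-0. It was lowest in al24567 replicate 2, the library with the most GPT2. The other genotypes did not share that pattern. In ring1a1b, replicate 1 had both the most GPT2 and the highest leaf sum. In Col-0, GPT2 was highest in replicate 2 and the leaf sum lowest in replicate 3.

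Transcripts of maturing seeds were present in ring1a1b. Of the 6 genes listed, CRA1, CRC and SESA1 encode storage proteins, OLEO1 and OLEO2 oil body proteins and EM1 a late embryogenesis protein. SESA1 did not pass the filter, and CRC, OLEO1 and EM1 passed it only because every ring1a1b library was high, so no count of calls is given. CRA1 was at 1325, 1128 and 295 in ring1a1b, 26.0, 7.54 and 0.270 in al24567, and 2.12, 6.29 and 6.07 in Col-0. The 6 listed genes summed to 3745, 2698 and 1187 in ring1a1b, 56.1, 17.2 and 6.10 in al24567, and 2.12, 6.29 and 6.07 in Col-0, where 5 of the 6 had 0 reads in each library. Among ring1a1b libraries the sum was highest in replicate 1, which also had the highest value of its group for all 10 genes, QQS and GPT2 among them. Of all 23207 genes tested, 34.7% were highest in that library of the group. The part of root, leaf or seed tissue in the differences of QQS, GPT2 and the starch genes was not tested.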

How the data were processed

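Per the labels' extraction protocol, total RNA of seedlings was sequenced as paired reads, 3 libraries for each of 3 genotypes. The labels' molecule field reads genomic DNA, at odds with that protocol. Per the submitters' processing notes, bcl2fastq, HISAT2, edgeR and the TAIR10 genome were used. Versions, the counting tool, the gene annotation and strandedness are not given in the sources used here. The deposited signal values, called adjusted read counts, are counts that edgeR had brought to a common library size, which was read from the values. Inverting that adjustment with a dispersion of 0.00826 returned whole reads, and 100% of 292932 values were matched within 0.01 reads or a relative 1e-05. All 32548 locus identifiers matched the TAIR10.1 annotation, which supplied coordinates, exon lengths and upstream windows.

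The main test was limma-trend (limma 3.58.1, R 4.3.3) on log2(value + 1) for the 23207 genes that reached 1 in 3 or more libraries. The 9 libraries were fitted together, leaving 6 residual degrees of freedom, and errors of log2 differences are its moderated standard errors. A gene was called where its p, adjusted by Benjamini and Hochberg's method over all genes tested, lay below 0.05. The comparisons share libraries and are not independent. Other settings tried were no filter, a pseudocount of 0.1, a value of at least 100 in 3 libraries, the 2 genotypes alone, the replicate number as a block, equal library totals, each library left out, and tests of recovered reads with edgeR 4.0.16 (TMM or RLE factors) and DESeq2 1.42.0. The limma fit was tried on simulated counts, and the outcome is not given here. Counting intervals are 95% exact binomial intervals of 2 pooled read counts, and cover counting error only.

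The members and the lists, of 122 genes in 12 lists, were chosen with earlier results of these data known. Genes named were the 10 members, the disrupted genes, up to 4 called genes of each pathway list with the smallest p in each mutant, up to 2 of each marker list, 3 neighbours on each side of QQS and GPT2, and the 5 genes most like each. Some further genes are named for calls lost in other settings or for their weight in a sum. Python 3.11.15, pandas 2.3.3 and matplotlib 3.10.9 served for tables and figures.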

Additional observations from a re-analysis of the deposited data

How the results depend on the processing

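The counts of called genes, pathway genes and the 8 genes other than QQS and GPT2 stayed within 1.5 times their reported values under all alternatives that gave one. Of the 8 genes other than QQS and GPT2, those called ranged from 4 to 6 in al24567, 2 to 4 in ring1a1b and 5 to 7 between the mutants, and pathway genes from 30 to 35, 10 to 20 and 29 to 37. Replicate numbers gave at most a weak pairing of the libraries. Deviations of same-numbered libraries correlated at −0.0172 to 0.0377, and those of differently numbered libraries at −0.0319 to 0.016. All same-numbered pairs that include Col-0 lay above 0. With the replicate number as a block, 35, 11 and 31 pathway genes and 5, 3 and 6 of the 8 were called, NF-YC4 passed between the mutants (adjusted p = 0.0453), and SS5, PGM1 and ESV1 did not pass in ring1a1b (adjusted p = 0.0527, 0.0511 and 0.0570). Equal library totals reversed the small differences of DPE2 in al24567 (−0.02) and of SS1 (0.00), PHS1 (0.01) and AL2 (0.01) in ring1a1b. With 1 library left out, SEX1 in al24567 ranged from −0.04 (without Col-0 replicate 3) to 0.11, and DPE2 there from −0.00 (without Col-0 replicate 3 or al24567 replicate 1) to 0.05. In ring1a1b, GPT2 ranged from −0.22 (without ring1a1b replicate 1, and −0.05 without Col-0 replicate 1) to 0.71. PHS1 ranged from −0.10 to 0.01 (without ring1a1b replicate 2) and UGP2 from −0.02 (without Col-0 replicate 1) to 0.14. SPSA1 there ranged from −0.05 to 0.04, with −0.00, −0.03 and −0.05 without Col-0 replicate 1, Col-0 replicate 3 and ring1a1b replicate 1. None of these passed the test in the reported fit, and the cause was not tested. At a minimum of 100 in 3 libraries GPT2 was not tested. Depth limits QQS in al24567, where 5 reads in all carry its level.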
